A study of Mus musculus with 4 samples.

Results

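Carbonic anhydrases are zinc enzymes that convert carbon dioxide and water into bicarbonate and a proton, and so help cells to buffer pH and to move bicarbonate and chloride. The family was followed here through 9 mouse genes, Car2, Car3, Car4, Car8, Car10, Car11, Car12, Car13 and Car14, taken by gene symbol, with earlier results of these data known. Every probe set that the platform annotation gives to exactly 1 of these symbols was used, which made 20 probe sets of the 45101 on the array and 9 genes of 18194 with such a symbol. A probe set is the group of short oligonucleotides that reports a transcript, and 6 of the 9 genes had more than 1.

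Car2, Car3 and Car13 are soluble enzymes of the cytoplasm, Car4, Car12 and Car14 are held in the cell membrane with the active site facing outwards, and Car8, Car10 and Car11 are related proteins that have lost residues needed to bind the zinc and do not catalyse the reaction. Car2 has long been used in sensory ganglia as a stain for large neurons, and red cells, oligodendrocytes and osteoclasts also make it. Car3 is best known from slow skeletal muscle fibres and fat cells. Car8 binds the IP3 receptor, a calcium release channel, and Car10 and Car11 bind neurexins, adhesion proteins of synapses.

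The arrays held RNA of mouse dorsal root ganglia, which were dissected fresh with no other treatment. These ganglia lie beside the spinal cord and house the cell bodies of sensory neurons. There were 2 arrays for ganglia of the sample-2 level and 2 for ganglia of the sample-1 level, each pair numbered 1 and 2. The labels name neither level and give no strain, genotype, sex or age. Separate animals are not stated for the arrays within a level, so the spread behind each p-value is that between these arrays and may be technical. Markers fixed for sensory neurons at large were bright on every array, with 15 of 15 listed genes that had a probe set passing the filter on low signal. Their summed intensity was 55395 and 52162 on the sample-2 arrays, and 50771 and 52004 on the sample-1 arrays.

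Values are the deposited intensities on a linear scale, and levels are compared only within a probe set. Differences are sample-2 level minus sample-1 level on the log2(intensity + 16) scale, fitted with limma over all 27022 probe sets that passed the filter, with Benjamini-Hochberg adjustment over all of them. The added 16 makes a fitted difference smaller than the ratio of means for dim probe sets. The precision is limited by the number of arrays. Sample-1 array 2 stood apart for skeletal muscle genes, which bears on Car3. For the 13 tested genes of the fast muscle list, the ratio of sample-1 array 2 to sample-1 array 1 had a median of 5.20, against 1.01 over all 13543 tested genes.

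Of the 9 genes, Car2 was lower and Car8 higher at the sample-2 level, and the other 7 did not pass. That is 2 genes past an adjusted p of 0.05, beside 0.842% of all tested genes. Without sample-1 array 2, or without either sample-2 array, Car2 was the 1 gene past it, and without sample-1 array 1 Car2 and Car3 were. By probe set, 15 of the 20 passed the filter and 5 did not, and 1 was lower and 1 higher past the threshold, beside 0.622% of all tested probe sets. An unadjusted p under 0.05 was found for 3 of the 15, with 10.9% over all tested probe sets. The arrays of the levels did not overlap for 10 of the 15, 6 with the sample-2 arrays above and 4 with them below, against 41.2% of all tested probe sets. By each gene's brightest tested probe set, 4 differences lay above 0 and 5 below, with a median of -0.01, as over all tested genes.

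**Figure D1:**
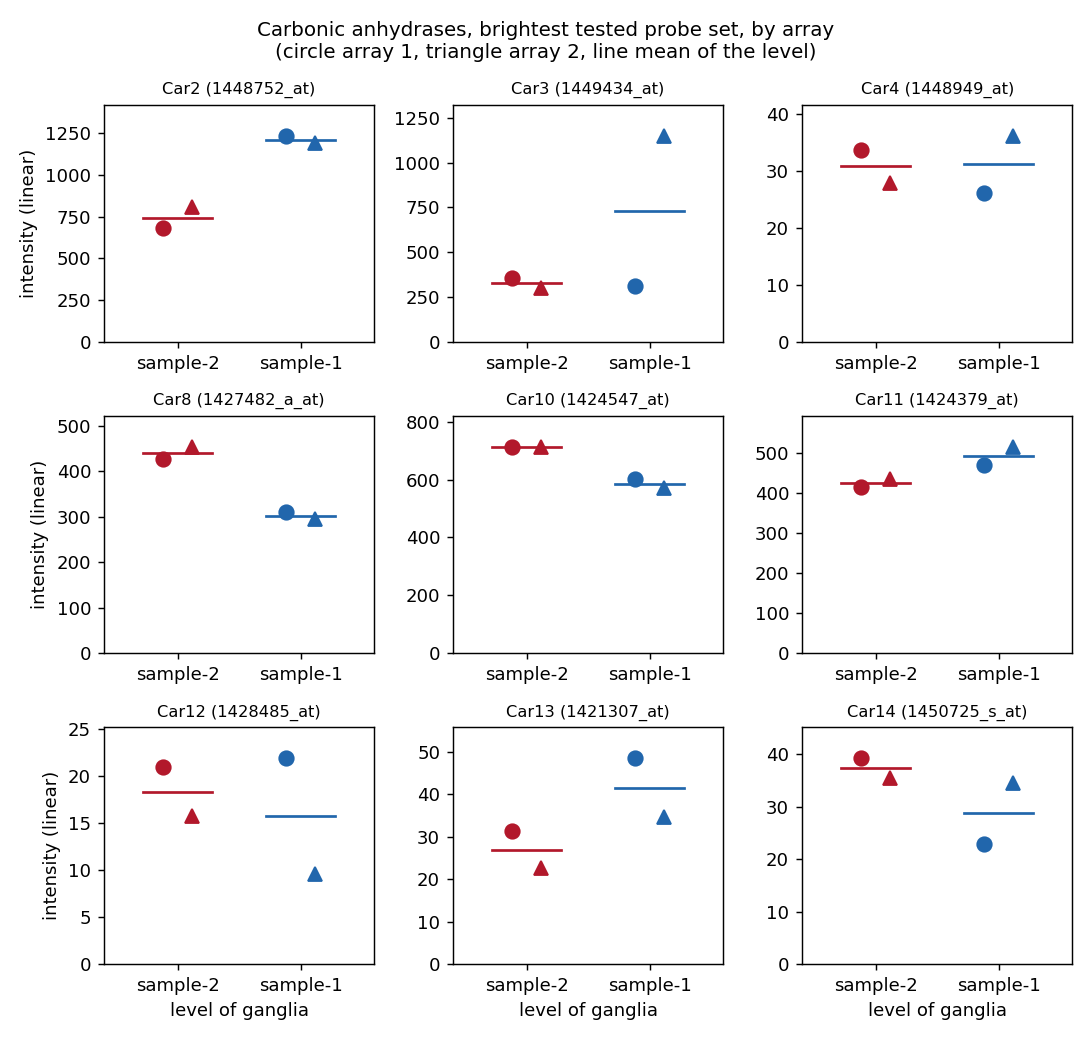
Intensity of each carbonic anhydrase gene by array, on a linear scale that starts at 0 and differs between panels, for the tested probe set with the highest mean. Circles are array 1, triangles array 2 and lines the mean of a level. The Car2 arrays of the sample-2 level lie below both sample-1 arrays, those of Car8 lie above, and Car3 has 1 high array, sample-1 array 2 at 1149.

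Among the soluble enzymes Car2 gave the clearest difference. Its only probe set measured 679 and 806 on the sample-2 arrays, and 1232 and 1188 on the sample-1 arrays. Both sample-2 arrays lay below both sample-1 arrays. The means were 742 ± 89.4 at the sample-2 level and 1210 ± 31.6 at the sample-1 level (SD, n = 2 each), a ratio of 0.614. The log2 difference was -0.70 ± 0.10 (SE, 95% interval -0.91 to -0.49, limma adjusted p = 0.00869). It stayed past the threshold with each array left out in turn, with differences from -0.82 to -0.58 and adjusted p from 0.00287 to 0.0308, but not when dim probe sets were kept (adjusted p = 0.189) or without the intensity trend in the variance (adjusted p = 0.415). In RNA of whole ganglia, fewer cells of a type and less RNA per cell cannot be told apart.

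Genes of several cell types that can hold Car2 were set beside it. Of 19 tested markers of large sensory neurons, 5 were lower past the threshold, 0 were higher, and 14 of the differences lay below 0, with a median of -0.16. Over all tested probe sets 0.4% were lower past the threshold. Of all 13543 tested genes, 6611 had differences above 0. The list was chosen with earlier results of these data known. Pvalb, the calcium-binding protein of muscle spindle afferents and of fast muscle, measured 508 and 415 on the sample-2 arrays, against 1217 and 1751 on the sample-1 arrays (-1.64 ± 0.15, adjusted p = 0.000397). Esrrg, an orphan nuclear receptor, measured 112 and 123 on the sample-2 arrays and 218 and 243 on the sample-1 arrays (-0.88 ± 0.13, adjusted p = 0.0121), without overlap. Calb2, calretinin, was also lower past the threshold (-1.15 ± 0.20, adjusted p = 0.0256). Asic1, an acid-sensing channel (-0.67, adjusted p = 0.0355), and Cntnap2, an adhesion protein beside the nodes of myelinated axons (-0.50, adjusted p = 0.0474), were the other members past it. The remaining 14 did not pass. Nefm, a neurofilament chain, differed by 0.04 (adjusted p = 0.867). Runx3, a transcription factor of proprioceptive neurons with a dim probe set, differed by -0.16 (adjusted p = 0.845). Of the 5 members above 0, Calb1 differed most (0.23, adjusted p = 0.352). It measured 885 and 817 on the sample-2 arrays and 723 and 725 on the sample-1 arrays, without overlap. The summed intensity of the list was 26545 and 23882 on the sample-2 arrays, and 28535 and 29217 on the sample-1 arrays. Nefm alone gave 7300 and 6848 of this on the sample-2 arrays, and 6867 and 6890 on the sample-1 arrays. The sum thus weighs the brightest genes most. The part of these neurons in the Car2 difference was not tested.

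Of 15 tested genes of the broader neuronal list, 0 passed in either direction and 13 differences lay above 0, with a median of 0.11. The largest was that of Scn9a, a sodium channel (0.38 ± 0.09, adjusted p = 0.116), followed by that of Scn10a (0.33, adjusted p = 0.286). Tubb3, Uchl1 and Nefl hardly differed (-0.0007, 0.007 and -0.01), so the list did not shift evenly. Schwann cell and myelin genes lay on the same side as Car2. All 11 tested members had differences below 0, with a median of -0.40, and Pmp2, which carries lipids in peripheral myelin, was the single member past the threshold (-2.28 ± 0.20, adjusted p = 0.000366). Their summed intensity was 24868 and 19865 on the sample-2 arrays, and 27716 and 25609 on the sample-1 arrays. Of 11 satellite glial cell markers 0 passed and 8 lay below 0, with a median of -0.04. The most changed, Slc1a3, a glutamate transporter, differed by -0.48 (adjusted p = 0.469). Its probe set was dim, with 25.5 and 45.0 on the sample-2 arrays and 57.6 and 50.7 on the sample-1 arrays. The probe sets of Slc1a3 and Scn9a have a suffix that marks possible matches to other transcripts. The parts of these cells in the Car2 difference were not tested.

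Red cells and osteoclasts also make Car2, and their lists were set beside it too. Of their tested markers 0 were lower past the threshold, beside 0.4% of all tested probe sets. All 7 tested red cell genes had differences above 0, with a median of 0.64, and Slc4a1, the chloride and bicarbonate exchanger of the red cell membrane, was the single member past the threshold (1.07 ± 0.20, adjusted p = 0.0363). Slc4a1 measured 182 and 282 on the sample-2 arrays, and 83.4 and 119 on the sample-1 arrays, from a probe set whose suffix marks possible matches to other transcripts. The summed intensity of the list was 532 and 756 on the sample-2 arrays, and 342 and 351 on the sample-1 arrays. Car1, the most abundant carbonic anhydrase of red cells, stayed dim, with 14.7 and 39.8 on the sample-2 arrays and 4.62 and 26.9 on the sample-1 arrays (adjusted p = 0.714). Of 8 listed osteoclast genes 4 were tested and 0 passed. The largest difference was that of Mmp9, a matrix protease also made by neutrophils (0.58 ± 0.23, adjusted p = 0.364). Calcr, Atp6v0d2, Dcstamp and Ocstamp, of the same list, lay below the filter level on average, which limits what it can show. The parts of red cells and osteoclasts in the Car2 difference were not tested.

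**Figure D2:**
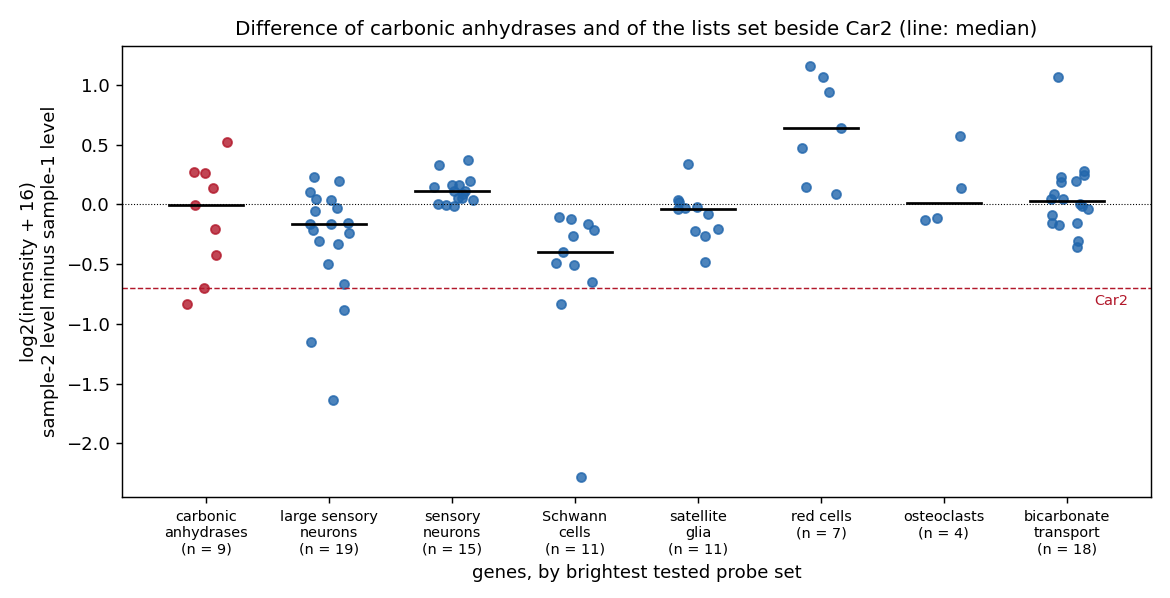
Log2 difference, sample-2 level minus sample-1 level, for each carbonic anhydrase gene and for each tested gene of the lists set beside Car2, by brightest probe set. Black lines are medians, the dashed red line is Car2 at -0.70, and n is the number of tested genes. Red cell genes all lie above 0 and Schwann cell genes all lie below 0.

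The genes nearest to Car2 over the 4 arrays, by Euclidean distance between log2 values centred on each probe set's mean, were Gsdmd (0.08), Hlf (0.09), Igfbp2 (0.09), Fbln7 (0.11) and Papss2 (0.11). Igfbp2, a binding protein of insulin-like growth factors, measured 71.1 and 86.0 on the sample-2 arrays and 129 and 134 on the sample-1 arrays. Hlf, a transcription factor of the PAR bZIP family, measured 31.4 and 41.2 on the sample-2 arrays and 76.4 and 68.9 on the sample-1 arrays. None of these 5 passed the threshold, with the smallest adjusted p for Igfbp2 at 0.0895.

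Car3 differed more between the arrays of the sample-1 level than between the levels. Its brightest probe set measured 356 and 303 on the sample-2 arrays, and 309 and 1149 on the sample-1 arrays. Sample-1 array 2 was high, while sample-1 array 1 lay between the sample-2 arrays. The means were 330 ± 37.5 at the sample-2 level and 729 ± 594 at the sample-1 level (SD, n = 2 each), and the log2 difference of -0.84 ± 0.39 did not pass (95% interval -1.70 to 0.03, adjusted p = 0.474). The result rests on single arrays: without sample-1 array 2 the difference was 0.083 (adjusted p = 0.949), and without sample-1 array 1 it was -1.76 (adjusted p = 2.16e-05). The other tested probe set of Car3 behaved likewise, with 35.1 and 40.6 on the sample-2 arrays and 29.3 and 119 on the sample-1 arrays (-0.54 ± 0.37, adjusted p = 0.659). The remaining 2 probe sets of Car3 lay below the filter level, an intensity of 14.3, with values up to 13.6.

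Car3 followed the fast muscle genes over the arrays. The ratio of sample-1 array 2 to sample-1 array 1 was 3.71 and 4.07 for its tested probe sets, and 0.665% of all tested genes had a ratio as high as 3.71. For the other 13 tested probe sets of the 9 genes the ratio ran from 0.437 to 1.57. Outside these 9 genes, the ratio of Car1 was higher, at 5.84, between dim values of 4.62 and 26.9. A dim probe set of Car5b had 0.238. All 13 tested fast muscle genes were higher on sample-1 array 2, with ratios from 1.44 to 11.3. Their summed intensity was 2247 and 1634 on the sample-2 arrays, and 2561 and 9524 on the sample-1 arrays. Pvalb, also on the list of large sensory neurons, had the lowest ratio. It gave 508 and 415 of the sum on the sample-2 arrays, and 1217 and 1751 on the sample-1 arrays. The 13 tested genes that fast and slow fibres share had ratios from 2.40 to 5.77. All 14 listed shared genes, tested or not, summed to 1207 and 847 on the sample-2 arrays, and 1172 and 4496 on the sample-1 arrays. Between the levels, 2 fast muscle genes were lower past the threshold, beside 0.4% of all tested probe sets. They were Myh2, a fast myosin heavy chain (-1.99 ± 0.35, adjusted p = 0.0319), and Pvalb, already counted with the large sensory neurons. Myh2 measured 2.16 and 11.7 on the sample-2 arrays, both below the filter level, and 42.8 and 120 on the sample-1 arrays. None of the shared genes passed, with the largest difference for the oxygen-binding protein Mb (-1.51 ± 0.37, adjusted p = 0.108).

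Slow fibre and fat cell genes, the sources for which Car3 is best known, had lower median ratios. Of 6 tested slow muscle genes 0 were higher on sample-1 array 2 than on sample-1 array 1, with ratios from 0.680 to 0.976 and a median of 0.879. All 6 were dim, from 22.1 to 55.3 on the sample-1 arrays, which limits what their ratios show. Tnni1, of the same list but below the filter level on average, measured 7.19 and 22.8 on the sample-1 arrays. Myh7, the slow myosin heavy chain, measured 14.1 and 2.55 on the sample-2 arrays and 35.2 and 31.2 on the sample-1 arrays (adjusted p = 0.159). All 8 listed slow muscle genes, tested or not, summed to 262 and 129 on the sample-2 arrays, and 287 and 265 on the sample-1 arrays. Of 11 tested fat cell genes 7 were higher on sample-1 array 2, with ratios from 0.660 to 8.60 and a median of 1.12. The highest was that of Lipe, a lipase of fat droplets, with 47.9 and 50.3 on the sample-2 arrays and 7.43 and 63.9 on the sample-1 arrays. Adipoq, the adipocyte hormone adiponectin, measured 34.1 and 39.9 on the sample-2 arrays and 31.0 and 29.0 on the sample-1 arrays. Thrsp, a regulator of fat synthesis, was the single member of that list past the threshold between levels (-0.86 ± 0.12, adjusted p = 0.0118). Cidec, a protein of fat droplets, and Lep, the hormone leptin, lay below the filter level on average. The fat cell list summed to 5339 and 5098 on the sample-2 arrays, and 4777 and 4874 on the sample-1 arrays. Scd1 alone gave 4509 and 4279 of this on the sample-2 arrays, and 3941 and 3819 on the sample-1 arrays. The sum thus mostly follows that 1 gene and is no measure of fat cells. The parts of these tissues in the Car3 values were not tested.

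**Figure D3:**
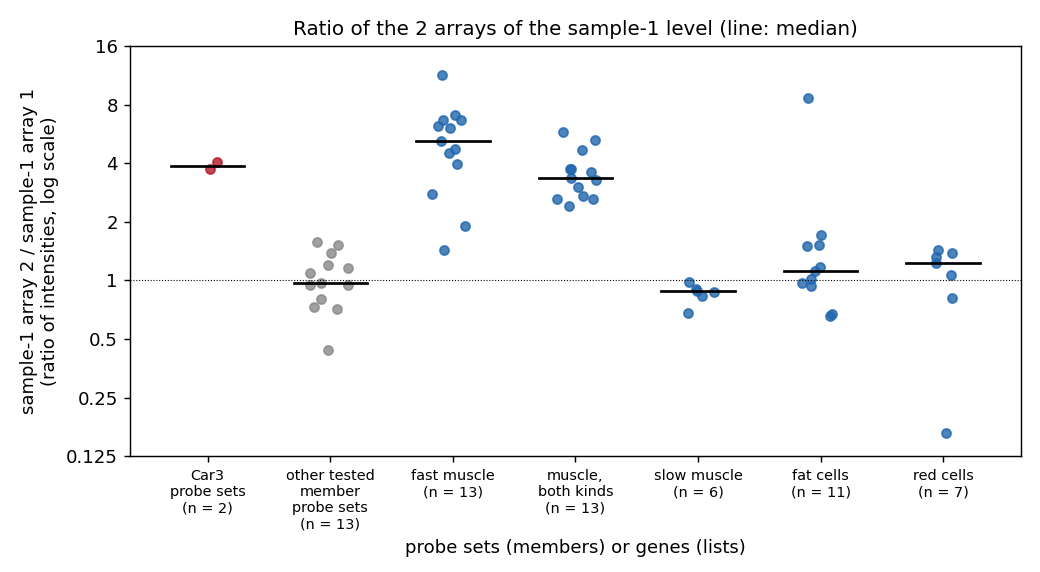
Ratio of intensities of the arrays of the sample-1 level, array 2 over array 1, on a log scale. Shown are the tested probe sets of Car3, those of the other followed carbonic anhydrases (without Car1 and Car5b) and the tested genes of 5 lists. Lines are medians and n counts probe sets or genes. Both Car3 probe sets, at 3.71 and 4.07, lie among the fast and shared muscle genes, and the slow muscle genes lie below 1.

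The 5 genes nearest to Car3 over the 4 arrays were Mybpc2, at a distance of 0.19, Atp2a1 (0.25), Pgam2 (0.28), Myoz1 (0.31) and Ttn (0.34). Atp2a1 is the calcium pump of fast fibres and Ttn the giant spring protein titin. Mybpc2, a myosin-binding protein of fast fibres, measured 36.8 and 33.5 on the sample-2 arrays and 26.7 and 139 on the sample-1 arrays, so it too was high on 1 array. Car3, Car2, Car1 and Car13 are neighbours in the annotation (GRCm38.p6), in the order Car13, Car1, Car3, Car2. Their arrays differed in pattern, since Car2 was nearly equal on the sample-1 arrays, where Car3 differed most.

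Car13, a cytoplasmic enzyme, was dim. Its brightest probe set measured 31.4 and 22.6 on the sample-2 arrays, and 48.5 and 34.7 on the sample-1 arrays, and its second tested probe set 23.3 and 28.3 on the sample-2 arrays, and 43.5 and 35.0 on the sample-1 arrays. Both had the sample-2 arrays below the sample-1 arrays, and neither passed, with differences of -0.42 ± 0.23 and -0.40 ± 0.22 (adjusted p = 0.548 and 0.549). The 95% interval of the brightest ran from -0.92 to 0.08. Its remaining probe set lay below the filter level on average, with values from 6.05 to 15.4.

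Among the related proteins without catalysis Car8 was higher at the sample-2 level. Its brightest probe set measured 427 and 453 on the sample-2 arrays, and 310 and 295 on the sample-1 arrays. The levels did not overlap, with a mean of 440 ± 18.4 at the sample-2 level and 302 ± 10.6 at the sample-1 level (SD, n = 2 each), a ratio of 1.46. The log2 difference was 0.52 ± 0.10 (95% interval 0.29 to 0.74, adjusted p = 0.0498), just under the threshold, and with any array left out the adjusted p ran from 0.0948 to 0.229. Of its dimmer probe sets, 1 measured 27.8 and 38.6 on the sample-2 arrays against 14.4 and 22.7 on the sample-1 arrays, a difference of similar size that did not pass (0.51 ± 0.25, adjusted p = 0.487). The other overlapped, with 42.6 and 53.9 on the sample-2 arrays and 48.2 and 35.0 on the sample-1 arrays (0.16 ± 0.21, adjusted p = 0.840). With the mean of all 3 probe sets the difference was 0.40 and did not pass (adjusted p = 0.282).

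Car10 had the same direction but did not pass. Its brightest probe set measured 712 on both sample-2 arrays, and 601 and 571 on the sample-1 arrays. The levels did not overlap, and the log2 difference was 0.27 ± 0.09 (95% interval 0.08 to 0.47, unadjusted p = 0.00990, limma adjusted p = 0.249). The second probe set, with 26.8 and 32.4 on the sample-2 arrays and 20.0 and 24.0 on the sample-1 arrays, gave 0.26 ± 0.23 (adjusted p = 0.748). Car11 lay the other way, with 414 and 434 on the sample-2 arrays and 470 and 514 on the sample-1 arrays. Its difference of -0.21 ± 0.10 did not pass (95% interval -0.42 to 0.01, adjusted p = 0.484), although the arrays of the levels did not overlap.

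The proteins that these relatives bind were listed as well, and 4 of 6 had a probe set. None passed. Itpr2, an IP3 receptor, measured 21.0 and 14.3 on the sample-2 arrays and 37.3 and 33.7 on the sample-1 arrays (-0.62 ± 0.24, adjusted p = 0.342). Itpr3 differed by -0.35 (adjusted p = 0.337), while the neurexin genes Nrxn2 and Nrxn3 differed by 0.19 (adjusted p = 0.575) and 0.29 (adjusted p = 0.257).

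The membrane-bound enzymes were all dim and none passed. Car4, an enzyme anchored by a lipid and found on capillary endothelium, measured 33.7 and 27.8 on the sample-2 arrays, and 26.2 and 36.1 on the sample-1 arrays, for its brightest probe set (-0.01 ± 0.22, 95% interval -0.50 to 0.49, adjusted p = 0.995). Its second probe set did not overlap, with 23.2 and 32.1 on the sample-2 arrays against 15.0 and 17.3 on the sample-1 arrays (0.43 ± 0.25, 95% interval -0.11 to 0.98, adjusted p = 0.574). Of 14 tested endothelial markers 0 passed and 9 lay below 0, with a median of -0.17, and Robo4, an endothelial guidance receptor, differed most (-0.53 ± 0.22, adjusted p = 0.383). The summed intensity of that list was 1358 and 1190 on the sample-2 arrays, and 1434 and 1381 on the sample-1 arrays.

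Car14, a transmembrane enzyme, measured 39.3 and 35.5 on the sample-2 arrays, and 22.9 and 34.6 on the sample-1 arrays. The lower sample-2 array lay just above the higher sample-1 array, and the difference was 0.27 ± 0.22 (95% interval -0.22 to 0.76, adjusted p = 0.735). Car12, also transmembrane, measured 21.0 and 15.8 on the sample-2 arrays, and 21.9 and 9.58 on the sample-1 arrays, and differed by 0.14 ± 0.29 (95% interval -0.49 to 0.77, adjusted p = 0.915). Its other 2 probe sets lay below the filter level on average, with values of 20.3 and 10.3 on the sample-2 arrays and 8.13 and 10.9 on the sample-1 arrays for the brighter of them. The intervals of Car12 and Car14 leave room for a difference as large as that of Car8.

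**Figure D4:**
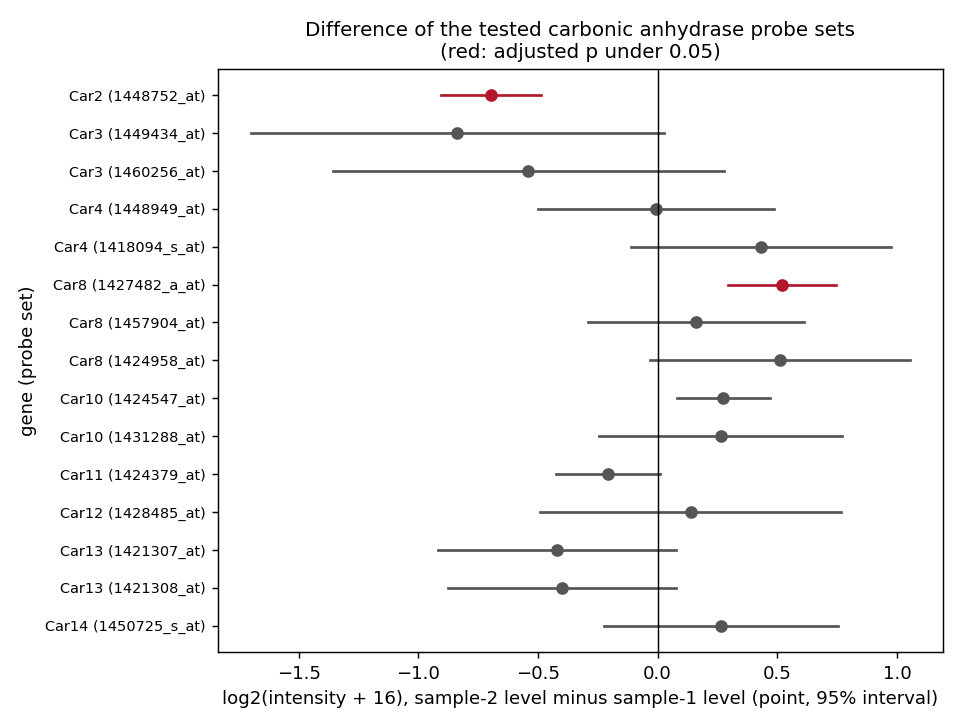
Log2 difference, sample-2 level minus sample-1 level, for the 15 tested carbonic anhydrase probe sets, as points with 95% intervals from the limma fit. Red marks adjusted p under 0.05. The interval of Car2 runs from -0.91 to -0.49 and that of the brightest Car8 probe set from 0.29 to 0.74, while the widest, of Car3, runs from -1.70 to 0.03.

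The remaining genes of the family were dim. Of Car1, Car5a, Car5b, Car6, Car7, Car9 and Car15, 4 had a probe set that passed the filter and 0 passed the threshold. Car7, a cytoplasmic enzyme of neurons, measured 54.4 and 59.3 on the sample-2 arrays and 78.6 and 48.5 on the sample-1 arrays for its brightest probe set (adjusted p = 0.911). Car5b, a mitochondrial enzyme, measured 44.7 and 33.0 on the sample-2 arrays and 20.1 and 28.7 on the sample-1 arrays (0.44 ± 0.23, adjusted p = 0.528).

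Transporters that carry bicarbonate, protons, lactate, water and chloride were measured around these enzymes. Of 25 listed genes 18 were tested, 10 with differences above 0 and 8 below, with a median of 0.03. Slc4a1, counted with the red cells above, was higher past the threshold, and 0 were lower. Slc4a4, a sodium and bicarbonate cotransporter, differed by 0.19 (adjusted p = 0.573). Slc4a10, a neuronal transporter of sodium and bicarbonate, differed by -0.36 (adjusted p = 0.395), and the chloride importer Slc12a2 by -0.03 (adjusted p = 0.921). Aqp1, a water channel, measured 1911 and 1969 on the sample-2 arrays, and the difference of 0.25 from the sample-1 level did not pass (adjusted p = 0.252).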

How the data were processed

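The authors deposited 1 linear intensity per probe set and array. With 2% of values trimmed at either end, each array averaged 150.0, so these deposited intensities share a scaling target. Software, background step and detection calls: not given in the sources used here. Intensities were taken as log2(intensity + 16). Array medians ran from 25.9 to 27.3 and lay within 0.05 of each other on the log2 scale, so no further normalization was applied. The 64 control probe sets and those with a mean under the 40th percentile (intensity 14.3) were left out. The remaining 27022 probe sets were fitted with limma 3.58.1 in R 4.3.3 (lmFit, then eBayes, which let the variance follow intensity) and no covariate. The threshold was a Benjamini-Hochberg adjusted p of 0.05. The fit had 2 residual degrees of freedom and the moderated variance added 9.71. It was tested on simulated data.

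Names came from the platform annotation, where 34945 probe sets had 1 symbol, 932 several and 9160 none. Of the gene IDs, 34741 matched a RefSeq table (GRCm38.p6) and 0 symbols were updated. Genes are given by their brightest tested probe set. The members, the 14 gene lists and the tests were chosen with earlier results of these data known. Every member probe set is reported. From each list up to 3 genes past the threshold with the largest difference are named, or where none passed the 1 that differed most, plus genes that define a cell type. Asic1, Cntnap2 and Lipe were named to complete a count or a range. Nefm, Runx3, Car5b, Car7 and the transporters and partners other than Slc4a1 and Itpr2 were picked by their role, after the values were seen. Calb1, Scn10a, Tubb3, Uchl1, Nefl, Scd1 and Tnni1 were also named after the values were seen, to show the makeup of a list. Alternatives were other pseudocounts, filters, normalizations and variance models, a replicate block, probe sets without _x_at and _s_at, the mean of a gene's probe sets, and leaving out each array.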

Additional observations from a re-analysis of the deposited data

How the results depend on the processing

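Car2 kept its direction under all 14 alternatives and its side of the threshold under 12 of them. Its difference was -0.70 when dim probe sets were kept (adjusted p = 0.189) and without the intensity trend (adjusted p = 0.415). The alternatives for Car8 all lay above 0, but it passed in 4 of 14. The count of member genes past the threshold, 2, was 0 with dim probe sets kept or without the trend, 1 with a pseudocount of 1, quantile normalization, median centring or the mean of a gene's probe sets, and 1 to 2 with an array left out. The count of all probe sets past it, 168, was 4 with dim probe sets kept, 1 without the trend, 104 with median centring, and 102 to 241 with an array left out, where the lone array of a level is assumed to vary like the others.

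The array numbers do not pair the samples by their labels, and the deviations of same-numbered arrays correlated at r = 0.03. With the number as a replicate block 793 probe sets passed, 331 higher and 462 lower, and 3 member genes, Car3 among them (adjusted p = 0.0324). When single arrays were left out, the difference of Car3 ran from -1.76 to 0.083, above 0 without sample-1 array 2. That of Car4 ran from -0.16 to 0.15, above 0 without sample-2 array 2 or sample-1 array 2, and was 0.21 with the mean of its probe sets. That of Car12 ran from -0.15 to 0.42, below 0 without sample-1 array 2. The causes were not tested. Neither background nor detection is known for these intensities, which limits what the dim members can show.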

Other observations

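Car11 lies between Ntn5 and Dbp in the order of coding genes in the annotation (GRCm38.p6), and the 3 genes had differences on the same side. Ntn5, a netrin, measured 19.0 and 6.77 on the sample-2 arrays and 69.8 and 84.9 on the sample-1 arrays (-1.72 ± 0.24, limma adjusted p = 0.0106). Dbp, a circadian transcription factor, measured 323 and 355 on the sample-2 arrays and 513 and 454 on the sample-1 arrays (-0.49 ± 0.11, adjusted p = 0.0743). Of the 3, Ntn5 alone passed the threshold. These neighbours were chosen after their values were seen.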
